A study of Mus musculus with 15 samples.

Results

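In mouse liver, 55 genes had ribosome-protected reads that rose and fell over 24 h with a fitted peak from CT3 to before CT9, the middle of the subjective day. They were chosen out of 20403 genes in the files, of which 8216 averaged 100 counts or more over the libraries. Each gene was represented by its transcript with the highest mean count, and its reads in the CDS and both UTRs were summed. Levels are CPM, a gene's counts scaled to a common library size, computed over each library's total without the transcripts of the Mup family of major urinary proteins. A cosine with a period of 24 h was fitted by least squares to log2(CPM + 0.5) over all 14 libraries. A gene was kept when the cosine explained at least 0.6 of the variance (R2), when its fitted peak-to-trough difference was at least 1 on the log2 scale, and when no library held over 30% of its summed CPM. The genes Nr1d1 and Nr1d2 and all genes whose symbols start with Per, Cyp, Gst, Ugt or Slc25 were left out, which removed 2 genes with a peak in the window, Nr1d1 and Cyp2u1. The genes were thus selected on the fitted size, fit and peak time of their rhythm in these 14 libraries, and their levels, peak times and sizes below are a description and carry no test.

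The libraries came from whole liver of wild-type C57BL/6N male mice, 8 to 10 weeks old. The animals were held for 2 weeks in 12 h of light and 12 h of darkness, then moved to constant darkness, and from 24 h later livers were taken every 4 h from CT0 to CT24, with 2 mice at each of the 7 times. Circadian time (CT) counts the hours of the internal day, with CT0 at the start of the subjective day and CT12 at the start of the subjective night. The samples of the last pair are titled CT24, although their time label reads CT00, and they were used as CT24. Every value rests on 2 mice per time, so a difference between times is measured against the spread of 14 animals in all.

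Ribosome profiling sequences the stretches of mRNA that ribosomes shield from nuclease digestion, so its counts follow both the amount of an mRNA and how many ribosomes it carries. In liver, the clock is built from the activators BMAL1 and CLOCK, which bind E-boxes, and from repressors such as PER, CRY and REV-ERB, and it drives rhythms in lipid, sterol and amino acid metabolism. Feeding, hormones and body temperature add daily rhythms of their own, so that different sets of liver genes peak at different times of day.

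The stretches upstream of the genes' start sites were searched for short elements of these pathways, since these genes rise and fall together. RefSeq start sites on GRCm38.p6 were found for 53 of the 55 genes and for 8141 of the 8216, and the window was the 250 bases upstream. The canonical E-box, CACGTG on either strand, stood in 6 of the 53 windows (11.3%) and in 727 of the 8141 (8.93%). The matches follow with the E-box in capitals, 5′ to 3′ on the gene's strand.
Arsg, chr11:109473345-109473368, plus strand: gcgcgggccCACGTGgatcggggc
Nsmce2, chr15:59374170-59374193, plus strand: ctagcccgtCACGTGaccaagggg
Ubxn1, chr19:8871486-8871509, plus strand: ccctgcctcCACGTGacacaaaca
Dyrk1b, upper site, chr7:28179394-28179417, plus strand: gctgctccgCACGTGcgcggctca
Dyrk1b, lower site, chr7:28179447-28179470, plus strand: ccgctaggtCACGTGaatgatgtg
Pik3ap1, chr19:41385260-41385283, minus strand: ttcgggacaCACGTGgcacgagca
Slc8b1, chr5:120510942-120510960, plus strand: aaccCACGTGctttcaata

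These E-boxes began 20 bases before the start site in Arsg, 19 in Nsmce2, 53 in Ubxn1, 80 and 27 in Dyrk1b, 172 in Pik3ap1 and 246 in Slc8b1. The 6 genes had fitted peaks from CT3.24 to CT8.38, so the element was present at both ends of the window. The lower site of Dyrk1b overlapped the only match to the ROR and REV-ERB element TAGGTCA among the genes, an element found upstream of 1.73% of all genes. The D-box, searched as TTATGTAA and TTACGTAA, was in none of the 53 windows and in 0.774% of all. The cAMP response element TGACGTCA was upstream of Flcn and of 2.80% of all genes. A core of the heat shock element, GAANNTTC, was upstream of Hsd3b7, Abcg8 and Zfp526 (5.66% of the 53) and of 5.01% of all genes. These remaining matches are given with the element in capitals.
Flcn, cAMP response element, chr11:59810072-59810097, minus strand: tgtcagtttTGACGTCAcccctgcag
Hsd3b7, heat shock core, chr7:127800521-127800546, plus strand: ctctggcaaGAAAATTCcctccaaac
Abcg8, heat shock core, chr17:84682889-84682914, plus strand: aatgcaagtGAATTTTCtagtggcct
Zfp526, heat shock core, chr7:25221218-25221243, plus strand: ttctccgctGAATTTTCaaacagcag
All elements were searched on both strands, and a match describes these letters alone.

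The counts of a library summed over transcripts to 40593197 to 90458783, and to 17090764 to 35532809 once Mup counts, 42.1 to 70.7% of the total, were set aside. A read on sequence that transcripts share could count for each of them, so these sums are not numbers of reads. Hepatocyte markers summed to 133613 to 162644 CPM, so the tissue label matched the data. In 1 CT20 library, replicate 2, pancreatic acinar markers summed to 10249 CPM against 6.41 to 203 in the other 13. All counts of CT16 replicate 2 were even numbers, against 45.7 to 50.02% of the nonzero counts elsewhere. With the same rule, 57 genes were found without CT16 replicate 2 and 70 without CT20 replicate 2, and 42 and 48 of the 55 were among them. Here and below, fewer cells of a type and less RNA per cell cannot be told apart in bulk tissue.

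As a group, the 55 genes were highest around the middle of the subjective day and lowest in the subjective night. The mean of the 2 mice was highest at CT8 for 24 genes, at CT4 for 19, at CT12 for 8 and at CT0 for 4. It was lowest at CT16 for 33 genes, at CT20 for 17, at CT12 for 2, at CT24 for 2 and at CT0 for 1. In 49 of the 55 genes (89.1%) all 4 libraries of CT4 and CT8 lay above all 4 of CT16 and CT20, a pattern that 6.88% of the 8216 genes showed. The exceptions were Ubxn1, Adck5, Bbc3, Ntn4, Dcun1d4 and Limd2. The time mean changed by a median of 2.56-fold between its highest and lowest time, from 1.78-fold in Rcl1 to 5.93-fold in Arrdc3.

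**Figure D1:**
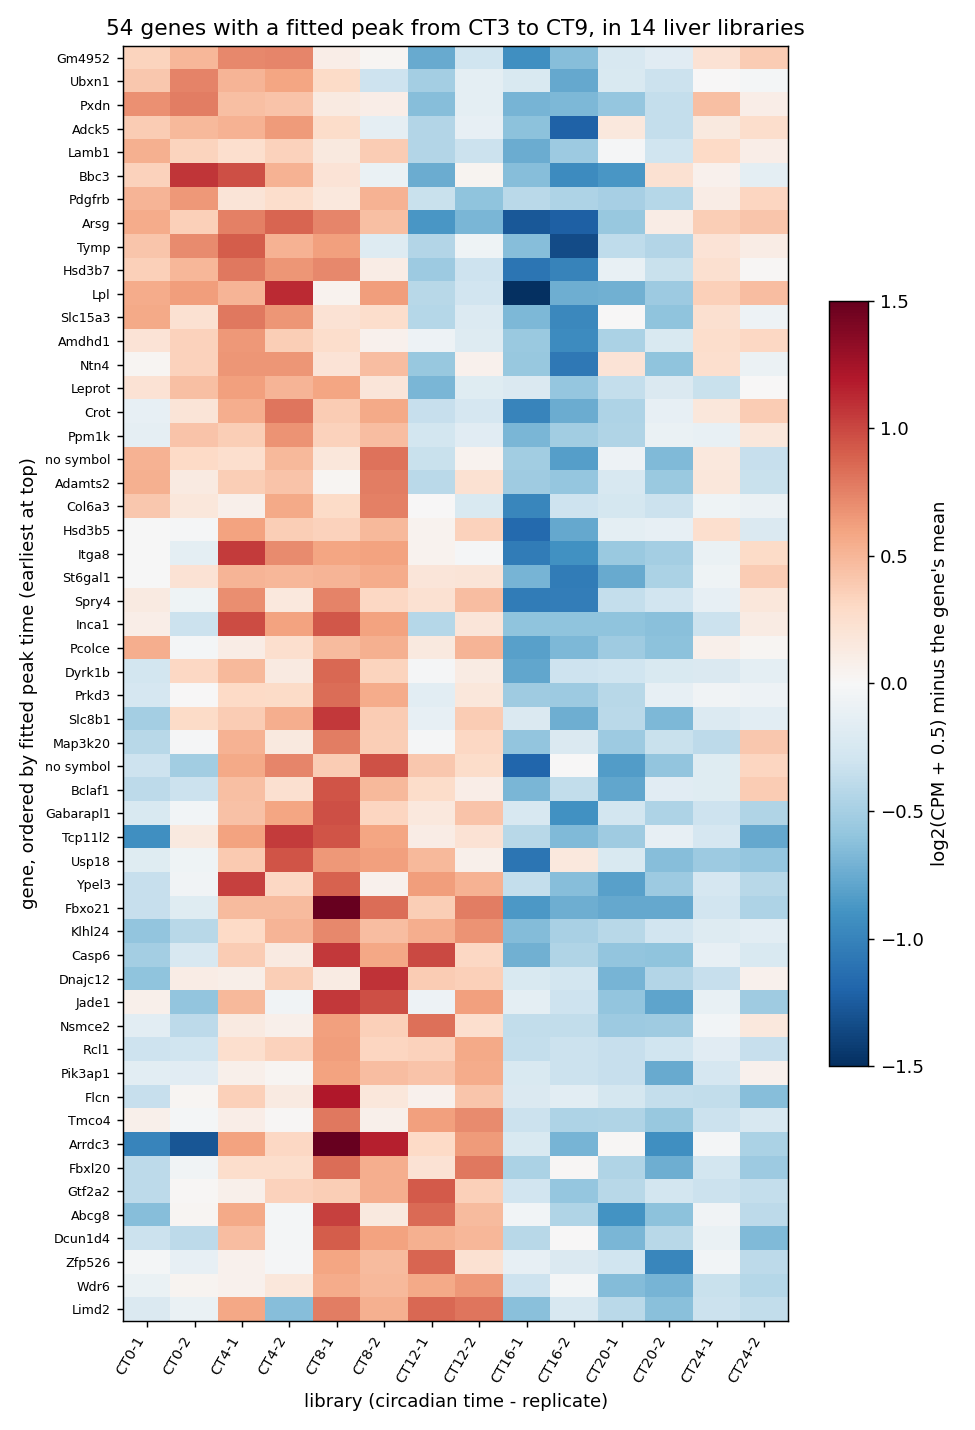
Heat map of log2(CPM + 0.5) minus each gene's mean, for 54 of the 55 genes (vertical axis, ordered by fitted peak time) in the 14 libraries (horizontal axis, circadian time and replicate). Red cells lie mostly at CT4 and CT8 and blue cells at CT16 and CT20, and the red band moves from CT0 and CT4 in the upper genes to CT8 and CT12 in the lower ones.

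Fitted peaks ran from CT3.12 to CT8.97 with a median of CT6.44, and 24 genes peaked before CT6 and 31 after. The standard error of a peak time had a median of 0.618 h. When the 2 replicate series of 7 libraries were fitted apart, their peak times differed by a median of 0.935 h, and by 2 h or less in 48 genes. Klhl24 had the closest pair, at CT8.04 in both series, and Adamts2 the widest, at CT2.84 and CT6.86. The fitted peak-to-trough difference had a median of 1.28 log2 units, from 1.00 to 2.03, and R2 a median of 0.740, from 0.604 to 0.931. By the same limits, 85 genes peaked from CT9 to before CT15, 58 from CT15 to before CT21 and 136 from CT21 to before CT3, so the day window held the fewest.

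The edge of the group was not a gap in the data. Bbc3 at R2 0.604 was just inside, and Hs1bp3 and Mrnip, both at 0.592, just outside. For the size of the rhythm, Dyrk1b and Rcl1, both at 1.00, were inside, and Fam20a and Ift46, both at 0.99, outside. At the early edge, Gm4952 at CT3.12 and Ubxn1 at CT3.24 were inside, and Amt (CT2.995) and Gclc (CT2.90) outside. At the late edge, Limd2 at CT8.97 and Wdr6 at CT8.79 were inside, and Klhdc7a at CT9.11 and Syt1 at CT9.39 outside. A mean count of 102 admitted a transcript without a symbol and 103 admitted Limd2, while Slc22a28 at 91.3 and Islr at 89.6 were too low. Trib3 was the 1 gene left out for a single library, which held 32.7% of its summed CPM, against 18.6% in Arrdc3 and 17.8% in Fbxo21. In the window, 40 further genes failed only the R2 limit and 173 only the size limit.

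To describe the genes, they were sorted by hand into known roles after their values had been seen, so how the peaks fall over these roles is a description and no result. Of the 12 genes of lipid, bile acid, steroid and other metabolic or organelle proteins, 10 peaked before CT6. So did 7 of the 8 genes of the extracellular matrix and of mesenchymal cells. After CT6 peaked 8 of the 9 genes of ubiquitin, autophagy and protein turnover, 7 of the 9 of cell death, growth signalling and cell cycle, and all 8 of RNA, chromatin and transcription. No test was run, since the peak time chose the genes.

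**Figure D2:**
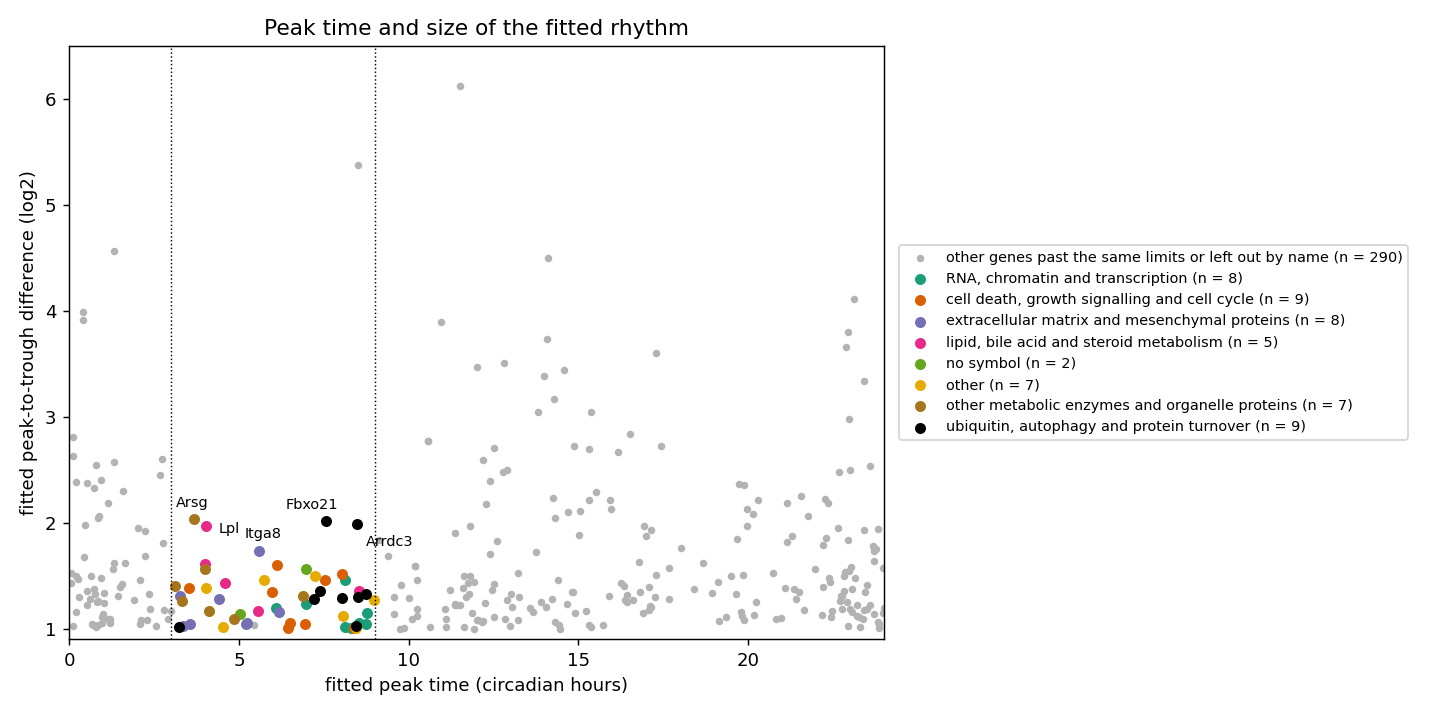
Fitted peak time in circadian hours (horizontal axis) and fitted peak-to-trough difference in log2 units (vertical axis) of the 55 genes, coloured by role, with the other genes that passed the same limits in grey. Dotted lines mark CT3 and CT9. The roles were assigned by hand, and the largest differences are those of Arsg at 2.03, Fbxo21 at 2.01 and Arrdc3 at 1.99.

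Genes of bile acid and lipid handling held the most densely read members. Hsd3b7 (chr7:127800609-127803802, in GRCm38.p6 coordinates as for the genes that follow) encodes the 3β-hydroxysteroid dehydrogenase that acts on C27 sterols in bile acid synthesis, and it had the highest CDS density of the 55, 399.7 RPKM (reads per kilobase of CDS, on the same library totals as CPM). Its level was 545 and 600.2 CPM at CT0, 738 and 676 at CT4, 699 and 460.2 at CT8, 291 and 344 at CT12, 199 and 212 at CT16, 394 and 338 at CT20, and 502 and 429 at CT24. Both CT4 mice and CT8 replicate 1 were above every other library, both CT16 mice were the lowest, and the fitted peak was at CT4.00 ± 0.409 h with a peak-to-trough difference of 1.61 ± 0.18 log2 units.

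Crot (chr5:8966033-8997146) encodes the peroxisomal carnitine octanoyltransferase, which readies shortened fatty acids for export to mitochondria. Its reads stood at 518 and 646 CPM at CT0, 822 and 984 at CT4, 735 and 833 at CT8, 442 and 474 at CT12, 284 and 336 at CT16, 407 and 516 at CT20, and 631 and 733 at CT24. The 4 libraries of CT4 and CT8 started at 735 and those of CT16 and CT20 ended at 516 CPM, so the groups did not overlap. The fitted peak was at CT4.59 ± 0.372 h, close to that of Hsd3b7, and the time means differed 2.91-fold.

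Lpl (chr8:68880555-68906932), lipoprotein lipase, releases fatty acids from circulating triglycerides and is made mostly outside adult hepatocytes. Its values were 44.0 and 46.1 CPM at CT0, 42.4 and 65.1 at CT4, 30.9 and 46.2 at CT8, 22.1 and 24.2 at CT12, 9.24 and 17.6 at CT16, 17.8 and 20.2 at CT20, and 38.1 and 41.2 at CT24. Day and night libraries did not overlap, with 30.9 CPM as the lowest of CT4 and CT8 and 20.2 as the highest of CT16 and CT20, but the 2 mice of CT4 and of CT16 were far apart. With a peak at CT4.04 ± 0.437 h and a difference of 1.97 ± 0.24 log2 units it had the largest difference of the lipid genes.

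Abcg8 (chr17:84676302-84700333), which with Abcg5 forms the transporter that secretes sterols into bile, peaked latest of these genes. It was found at 58.4 and 93.1 CPM at CT0, 135 and 88.7 at CT4, 185 and 101 at CT8, 165 and 127 at CT12, 88.7 and 66.5 at CT16, 48.7 and 59.1 at CT20, and 87.9 and 68.8 at CT24. The 2 mice of CT8 differed nearly as much as the times did, and the lowest library of CT4 and CT8 and the highest of CT16 and CT20 were both at 88.7 CPM. Its fitted peak was at CT8.53 ± 0.723 h. The gene overlaps Abcg5 on the annotation, and reads in shared stretches could belong to either.

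Hsd3b5 (chr3:98618636-98645534), a male-biased liver 3-ketosteroid reductase, lay at 192 and 164 CPM at CT4 and 55.9 and 73.9 at CT16, with all other libraries between 108 and 177. It peaked at CT5.57 ± 0.724 h. The gene has close copies in the Hsd3b family, so its counts are uncertain where reads could be shared.

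Of the other 7 metabolic and organelle genes, 6 peaked before CT6. Gm4952 (chr19:12599984-12627616) fitted the cosine best of all, with R2 0.931 and a peak at CT3.12 ± 0.313 h. Its level was 113 and 126 CPM at CT0, 148 and 148 at CT4, 95.8 and 91.4 at CT8, 52.5 and 72.5 at CT12, 47.0 and 57.3 at CT16, 75.7 and 79.3 at CT20, and 104 and 116 at CT24. The 2 mice were close together at CT4 and CT8 and farthest apart at CT12, and the time means fell from CT4 to CT16 and rose again through CT24.

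Amdhd1 (chr10:93523338-93540111), the imidazolonepropionase of histidine breakdown, had 207 and 228 CPM at CT0, 283 and 232 at CT4, 216 and 187 at CT8, 170.0 and 157 at CT12, 122 and 93.2 at CT16, 129 and 153 at CT20, and 215 and 222 at CT24. The time means of CT4 and CT16 were the highest and lowest, 2.39-fold apart, and the peak was at CT4.11 ± 0.41 h. Tymp (chr15:89371631-89377036), thymidine phosphorylase, gave 107 and 131 CPM at CT0, 151 and 115 at CT4, 123 and 69.9 at CT8, 58.9 and 76.7 at CT12, 51.1 and 31.2 at CT16, 61.03 and 59.0 at CT20, and 91.9 and 86.5 at CT24. Its CT8 mice, at 123 and 69.9 CPM, spanned a wide range, but all of CT4 and CT8 stayed above CT16 and CT20. Tymp overlaps Ncaph2 and Sco2.

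Arsg (chr11:109473333-109573330), the lysosomal sulfatase arylsulfatase G, had the largest fitted difference of the 55 genes, 2.03 ± 0.20 log2 units with a peak at CT3.67 ± 0.364 h. Its reads were few, at 10.2 and 8.78 CPM at CT0, 11.8 and 12.7 at CT4, 11.6 and 9.42 at CT8, 3.46 and 4.01 at CT12, 2.51 and 2.60 at CT16, 4.39 and 7.33 at CT20, and 8.83 and 9.16 at CT24. From CT0 to CT8 no library was under 8.78 CPM, and at CT12 and CT16 none was over 4.01. Its upstream window is one of the 6 with an E-box, and it overlaps Slc16a6 on the annotation. Ppm1k, the mitochondrial phosphatase that switches on breakdown of branched-chain amino acids, was at 35.5 and 39.9 CPM at CT16 and 74.3 and 91.8 at CT4. Slc8b1, the mitochondrial sodium and calcium exchanger, went from 12.2 and 10.0 CPM at CT20 to 34.6 and 21.3 at CT8, and was the 1 gene of this role with a peak after CT6. Adck5, of the ADCK family of mitochondrial proteins, ran from 19.8 and 12.9 CPM at CT16 to 44.2 and 48.0 at CT4, but its CT8 and CT20 libraries overlapped.

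**Figure D3:**
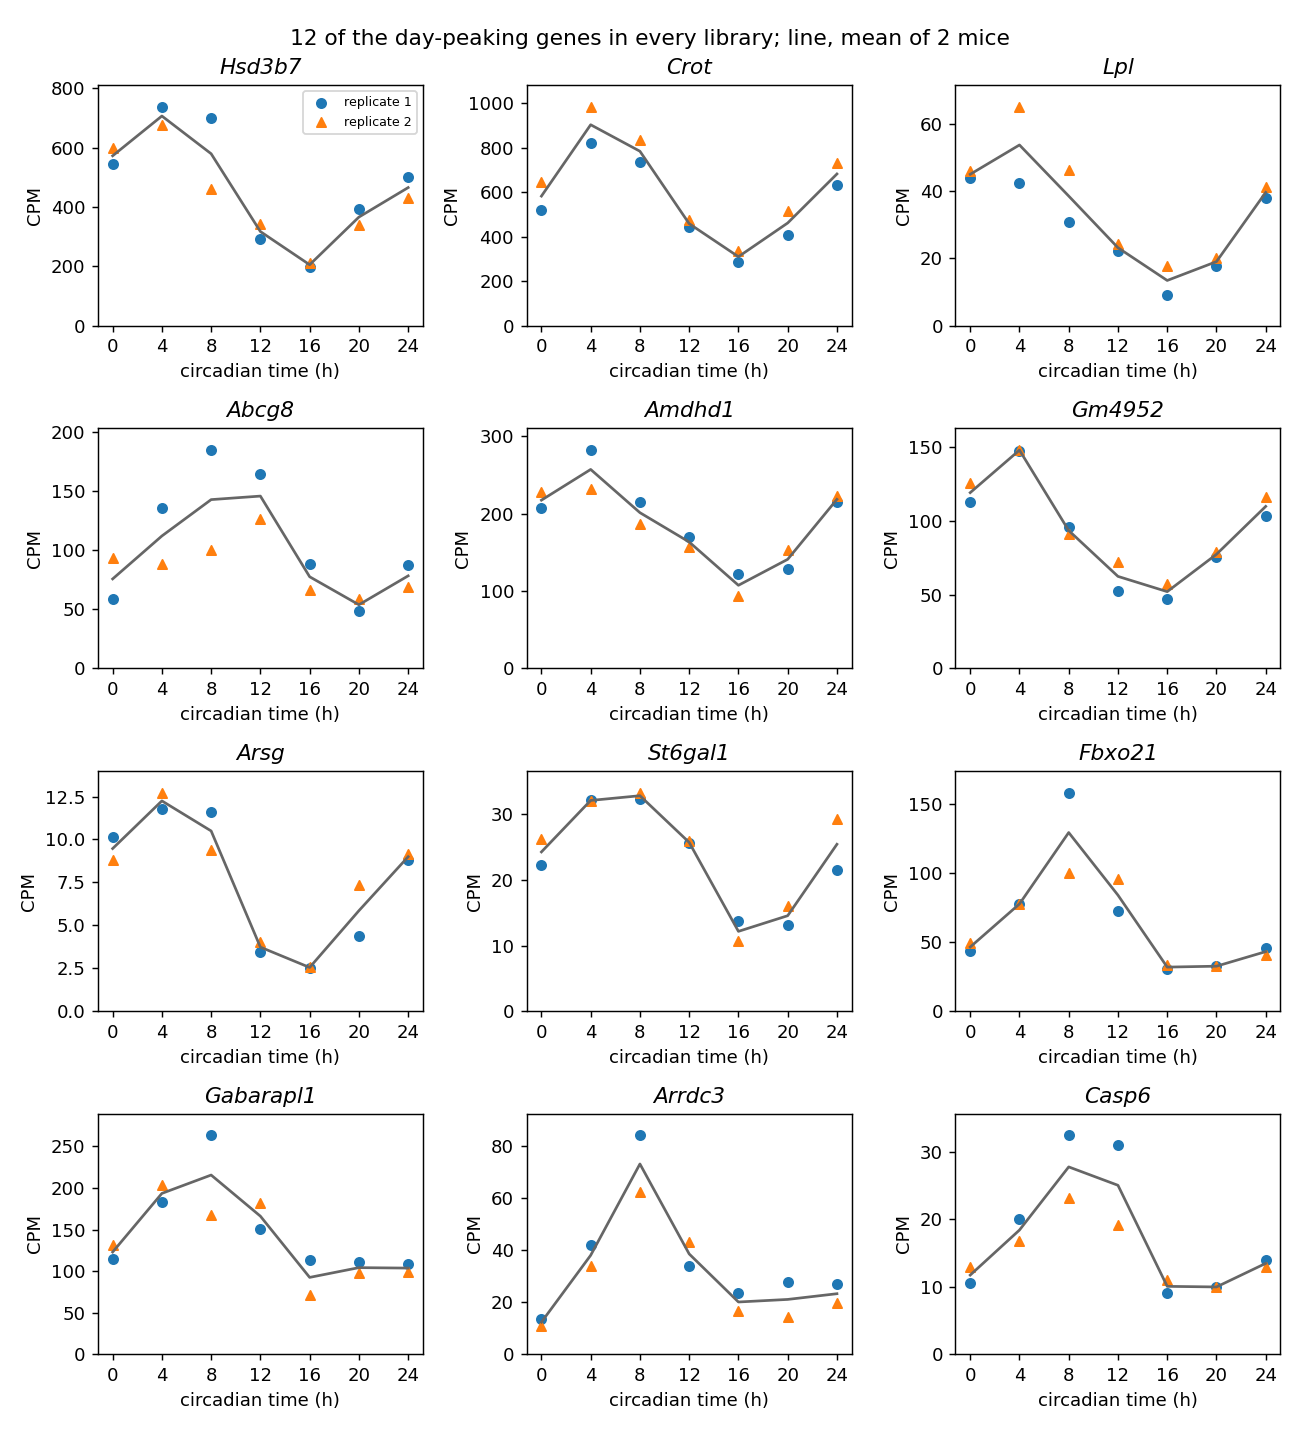
CPM (vertical axes, from 0) against circadian time in hours (horizontal axes) for 12 of the genes, with a marker for each replicate and a line through the mean of 2 mice. Hsd3b7, Crot, Lpl, Amdhd1, Gm4952 and Arsg are highest at CT4 and lowest at CT16, while Fbxo21, Gabarapl1, Arrdc3 and Casp6 are highest at CT8.

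Genes of the extracellular matrix and of mesenchymal cells had 8 members, with fitted peaks from CT3.26 to CT6.18. Their summed level was 52.3 to 126 CPM over the libraries. Itga8 (chr2:12106632-12301985), the integrin α8 subunit found on stellate cells and smooth muscle, had the largest difference of them, 1.73 ± 0.16 log2 units. Its values were 7.53 and 6.79 CPM at CT0, 16.2 and 12.7 at CT4, 11.7 and 11.7 at CT8, 7.85 and 7.50 at CT12, 3.40 and 3.81 at CT16, 4.97 and 5.19 at CT20, and 7.02 and 9.33 at CT24. Each library of CT4 and CT8 had at least 11.7 CPM and none of CT16 and CT20 had over 5.19.

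Pdgfrb, the receptor through which platelet-derived growth factor acts on stellate cells and pericytes, was measured at 15.6 and 17.2 CPM at CT0, 12.4 and 13.0 at CT4, 12.1 and 15.6 at CT8, 8.44 and 6.89 at CT12, 8.04 and 7.71 at CT16, 7.49 and 7.86 at CT20, and 11.6 and 13.6 at CT24. CT0 had the highest mean, and the values of CT12, CT16 and CT20 lay together, none above 8.44 CPM. Pxdn, the peroxidase that crosslinks collagen IV, had 31.7 and 33.7 CPM at CT0 and 11.9 and 12.0 at CT16, and Lamb1, the laminin β1 chain of basement membranes, 24.4 and 21.2 at CT0 against 9.83 and 11.3 at CT16. Both were highest at CT0, not in the middle of the day.

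Col6a3, a chain of collagen VI, reached 19.8 and 27.5 CPM at CT8 and was at 7.93 and 12.9 at CT16. Pcolce, which speeds removal of procollagen C-propeptides, had 12.9 and 13.4 at CT8 and 4.97 and 5.51 at CT16, and Adamts2, which removes the N-propeptides, 4.58 and 7.95 at CT8 against 2.92 and 2.80 at CT16. Ntn4, the laminin-related netrin 4, had 8.53 and 8.52 CPM at CT4 and 3.33 and 2.20 at CT16, but 6.09 and 3.24 at CT20, which overlapped the day. These genes lay at 1.24 to 6.75 RPKM over the CDS, against 399.7 for Hsd3b7 and 296 for Crot.

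Summed markers of other liver cell types had fitted peaks at the same hours. The 9 stellate cell markers besides Pdgfrb summed to 434 to 714 CPM. Their sum was highest at CT0, with 660.4 and 714 CPM, and lowest at CT16, with 434 and 461, and the cosine of the sum peaked at CT4.12 with a peak-to-trough difference of 0.52 log2 units. Of these 9 markers, 1 was called rhythmic by edgeR (Dcn), where 10.1% of all genes tested were called. The fitted differences of the 9 single markers ran from 0.30 log2 units in Colec11 to 1.22 in Des, whose mean was 2.29 CPM, and their peaks from CT0.707 in Lrat to CT5.74 in Col1a1, with 6 of them from CT3 to CT9. Col1a1 at 1.12 and Col3a1 at 1.08 (adjusted p = 0.0897 and 0.0675 by edgeR) were also over 1, the size that the choice of the 8 matrix genes required. The 10 sinusoidal endothelial markers ran from 373 to 624 CPM, peaked at CT3.75 with a difference of 0.46, and had 2 called genes, Oit3 and Cdh5. The 10 Kupffer cell markers ran from 289 to 530 CPM, peaked at CT4.36 with a difference of 0.41, and had none called. All markers of these 3 lists were detected, whereas Camp of the neutrophil list was at 0 in every library. The sum of the 12 hepatocyte markers, of which Alb is the highest, had a fitted difference of 0.10, and 2 of them were called. By edgeR these were Fgb, with a peak at CT5.54 and a difference of 0.74 (adjusted p = 0.0144), and Tat, with a peak at CT17.1 and a difference of 0.83 (adjusted p = 0.0346). The part of cell composition in the matrix genes' rhythms was not tested.

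**Figure D4:**
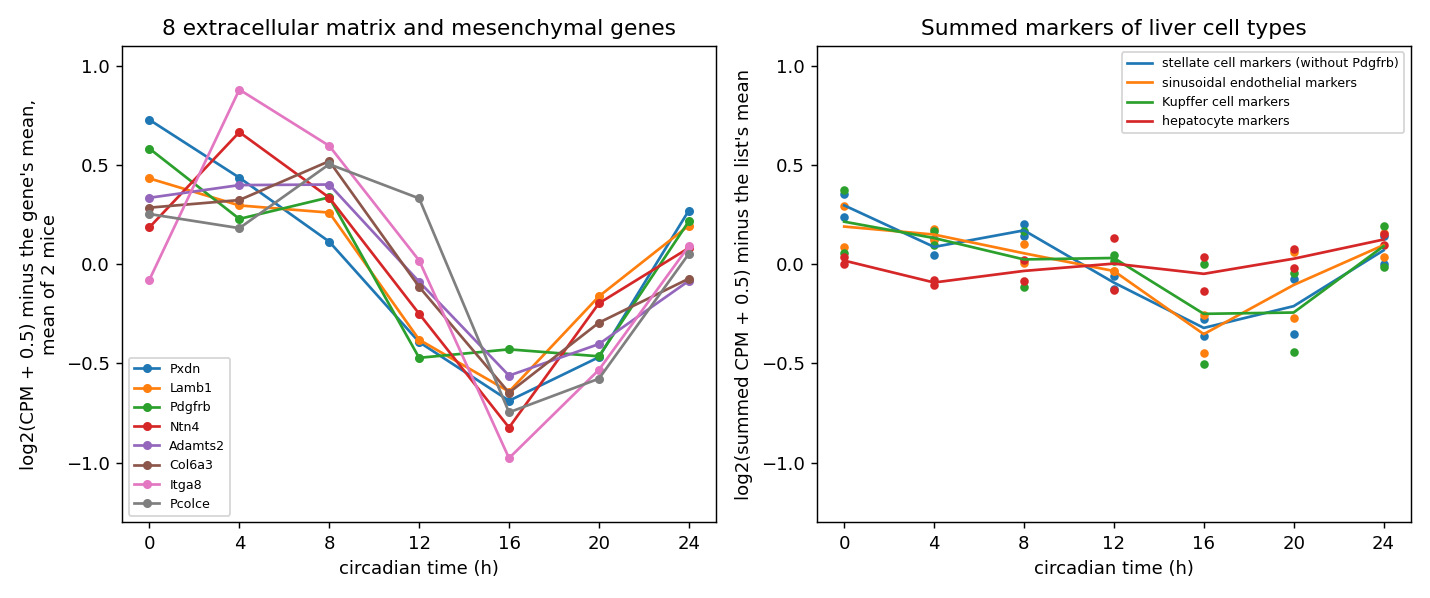
Left, log2(CPM + 0.5) minus each gene's mean for the 8 matrix and mesenchymal genes, as the mean of 2 mice at each circadian time in hours. Right, the same for the summed markers of 4 liver cell types, with a point for each library and a line through the time means. The 8 genes and the summed stellate, endothelial and Kupffer markers are all lower at CT16 than at CT0, with fitted differences of 0.41 to 0.52 for the marker sums.

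Genes of ubiquitin transfer, autophagy and protein turnover had peaks from CT3.24 to CT8.75. Fbxo21 (chr5:117976770-118010198), a substrate-binding F-box protein of SCF ubiquitin ligases, was the clearest. It had 43.9 and 49.3 CPM at CT0, 77.9 and 77.9 at CT4, 159 and 101 at CT8, 72.4 and 96.1 at CT12, 30.6 and 33.6 at CT16, 32.7 and 32.8 at CT20, and 45.9 and 40.7 at CT24. CT8 was highest in both mice, and no library of CT16 or CT20 was above 33.6 CPM while none of CT4 or CT8 was below 77.9. The fitted peak was at CT7.56 ± 0.341 h, the difference 2.01 ± 0.20 log2 units and R2 0.906.

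Arrdc3 (chr13:80883384-80896042), an α-arrestin that brings NEDD4-family ligases to membrane proteins, showed the largest change of time means, 5.93-fold. Its reads were 13.6 and 11.02 CPM at CT0, 41.9 and 34.0 at CT4, 84.0 and 62.1 at CT8, 33.8 and 43.2 at CT12, 23.4 and 16.7 at CT16, 27.8 and 14.3 at CT20, and 26.8 and 19.6 at CT24. CT8 was highest, and the lowest time was CT0 and not the night. The fitted peak was at CT8.47 ± 0.697 h.

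Gabarapl1 (chr6:129533192-129542331), an ATG8-family protein that is conjugated to autophagosome membranes, was the most densely read gene of this role at 248 RPKM. Its values were 115 and 131 CPM at CT0, 183 and 204 at CT4, 263 and 168 at CT8, 151 and 181 at CT12, 114 and 71.2 at CT16, 111 and 97.2 at CT20, and 109 and 98.6 at CT24. CT4 and CT8 were above all CT16 and CT20 libraries, with 168 CPM against 114. CT8 replicate 1 was well above its partner, as it was in Fbxo21 and Arrdc3.

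Most other genes of this role peaked at the same hours. Klhl24, a substrate adaptor of Cullin 3 ligases, had 56.2 and 47.1 CPM at CT8, 49.7 and 54.5 at CT12 and 21.4 and 24.04 at CT16. Dcun1d4, which promotes attachment of NEDD8 to cullins, had 25.5 and 20.5 at CT8 and 8.07 and 9.88 at CT20, and the F-box gene Fbxl20 16.6 and 13.5 at CT8 against 6.49 and 5.27 at CT20. Usp18, the protease that removes ISG15, had 15.6 and 15.2 CPM at CT8, and its 2 mice of CT16, at 4.30 and 11.02, were far apart. Flcn, folliculin, which regulates mTORC1 and lysosomal gene expression, had 18.5 and 8.84 CPM at CT8, where the mice differed about as much as day and night did. Ubxn1, a cofactor of the p97 unfoldase, was the exception in time, with 72.9 and 92.6 CPM at CT0, 67.4 and 44.3 at CT8 and 46.9 and 32.0 at CT16.

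Genes of cell death, signalling and the cell cycle had peaks from CT3.52 to CT8.38 and mean levels from 4.35 to 79.7 CPM. Casp6 (chr3:129901415-129914112), an executioner caspase, had 10.5 and 12.9 CPM at CT0, 20.0 and 16.8 at CT4, 32.4 and 23.1 at CT8, 30.9 and 19.1 at CT12, 9.09 and 11.02 at CT16, 10.0 and 9.92 at CT20, and 13.9 and 13.0 at CT24. CT8 and CT12 were high, and the libraries of CT16 and CT20 stayed under 16.8 CPM, the lowest of CT4 and CT8. Inca1 (chr11:70688361-70700285), an inhibitor of cyclin-dependent kinase that binds cyclin A1, had 7.31 and 5.31 CPM at CT0, 13.9 and 10.5 at CT4, 13.4 and 10.5 at CT8, 4.93 and 7.76 at CT12, 4.30 and 4.31 at CT16, 4.27 and 4.20 at CT20, and 5.30 and 7.42 at CT24. It was highest at CT4 and CT8, at 10.5 CPM or more, and at 7.76 or less in all other libraries, with a peak at CT6.11 ± 0.411 h.

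Ypel3, a small zinc-binding protein tied to growth arrest, was at 7.61 and 9.46 CPM at CT0, 20.5 and 12.3 at CT4, 18.6 and 10.3 at CT8, 15.4 and 14.3 at CT12, 7.55 and 6.11 at CT16, 5.38 and 6.56 at CT20, and 8.15 and 7.25 at CT24. CT4 replicate 1 and CT8 replicate 1 were well above their partners. Prkd3, protein kinase D3, was the most densely read of this role at 28.9 RPKM, with 138 and 113 CPM at CT8 and 53.1 and 52.3 at CT16, and its peak time was CT6.52 and CT6.46 in the 2 replicate series. Pik3ap1, the BCAP adaptor of PI3-kinase, had 53.0 and 48.0 CPM at CT8 and 27.3 and 20.3 at CT20.

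The remaining signalling genes were under 12 CPM in every library. Bbc3, the p53 target PUMA that starts apoptosis, had 8.13 and 5.89 CPM at CT4 and 2.36 and 1.80 at CT16, and had the lowest R2 of all. Spry4, a feedback inhibitor of receptor tyrosine kinase signalling, had 10.9 and 7.91 CPM at CT8 and 2.77 and 2.80 at CT16. Map3k20, the ZAK kinase that responds to stalled ribosomes, had 11.2 and 8.41 at CT8 and 4.08 and 5.41 at CT16, and the kinase Dyrk1b 10.6 and 7.22 at CT8 against 3.07 and 4.41 at CT16.

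Genes of RNA, chromatin and transcription had peaks from CT6.09 to CT8.79. Jade1 (chr3:41555734-41616864), a scaffold of the HBO1 histone acetyltransferase, had 7.27 and 4.39 CPM at CT0, 9.81 and 6.56 at CT4, 14.8 and 13.9 at CT8, 6.44 and 10.8 at CT12, 6.13 and 5.41 at CT16, 4.39 and 3.74 at CT20, and 6.28 and 4.56 at CT24. Both CT8 mice were above all other libraries, and the fitted peak was at CT8.11 ± 0.589 h. Wdr6, the partner of the FTSJ1 tRNA methyltransferase, held its high level through 37.0 and 35.4 CPM at CT8 and 37.5 and 39.7 at CT12 and was at 15.8 and 15.3 at CT20. Rcl1, which acts in 18S rRNA processing, had the smallest change of time means and nonetheless kept 85.6 and 69.1 CPM at CT8 and 70.0 and 82.3 at CT12 above the 42.8 to 49.1 of all libraries of CT0, CT16, CT20 and CT24.

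Bclaf1, a nuclear protein of mRNA processing, had its fitted peak at CT6.99 ± 0.627 h, with 37.8 and 27.3 CPM at CT8 against 11.8 and 14.9 at CT16. Gtf2a2, the γ subunit of the general factor TFIIA, had 18.9 and 12.7 CPM at CT12 and 7.96 and 6.41 at CT16. Nsmce2, the SUMO ligase of the SMC5/6 complex, had 12.3 and 8.07 at CT12 and 4.45 and 4.50 at CT20, and the zinc finger gene Zfp526 7.35 and 4.54 at CT12 against 2.98 and 1.68 at CT20. In these last genes 1 CT12 mouse was much higher than the other.

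St6gal1 (chr16:23224729-23360350), the sialyltransferase that caps N-glycans of secreted and surface glycoproteins, was placed in none of these roles. It was measured at 22.3 and 26.1 CPM at CT0, 32.1 and 32.0 at CT4, 32.3 and 33.2 at CT8, 25.5 and 25.8 at CT12, 13.7 and 10.6 at CT16, 13.1 and 15.95 at CT20, and 21.5 and 29.3 at CT24. The 4 libraries of CT4 and CT8 lay within 32.0 to 33.2 CPM and those of CT16 and CT20 within 10.6 to 15.95, a gap wider than the spread of either set. Tcp11l2 had 9.31 and 20.0 CPM at CT0, 27.6 and 37.7 at CT4, 35.1 and 27.3 at CT8, 19.5 and 21.1 at CT12, 13.3 and 11.2 at CT16, 12.3 and 16.4 at CT20, and 15.1 and 10.4 at CT24, highest at CT4 and CT8. Dnajc12, a co-chaperone of the aromatic amino acid hydroxylases, reached 6.51 and 13.2 CPM at CT8, where 1 mouse was about as low as those of CT4. Slc15a3, a lysosomal peptide transporter, Leprot, which acts in receptor trafficking, Tmco4 and Limd2 stayed under 11 CPM in every library. A pair of transcripts without a symbol in the tables used had means of 5.45 and 4.15 CPM, and the first, at 7.62 and 8.61 CPM at CT4 and 1.91 and 5.01 at CT16, was among the 16 largest differences.

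The pathways that hold a member had further rhythmic genes. The edgeR quasi-likelihood test of the cosine called 1185 of 11736 genes rhythmic, 10.1% of those tested, and 253 of them, 2.16% of those tested, peaked from CT3 to CT9, which is 21.4% of the called genes. All 55 genes were among the called ones, with adjusted p up to 0.0336, which follows from how they were chosen. Of 23 measured genes of bile acid handling, 10 were called and 4 peaked from CT3 to CT9, among them Hsd3b7, Abcg8 and the bile salt export pump Abcb11, with 359 to 668 CPM, a peak at CT4.42 and edgeR adjusted p 0.00131. The other leading genes of that list peaked elsewhere, namely the conjugate exporter Abcc2 at CT11.2, the peroxisomal oxidase Acox2 at CT2.36 and the bile acid receptor Nr1h4 at CT15.7. In all, 43.5% of the list was called.

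Of 27 measured genes of cholesterol synthesis and uptake, the list that holds Lpl, 12 were called and 2 of them peaked from CT3 to CT9. The enzymes Lss at CT21.0, Fdps at CT21.6 and Pmvk at CT22.3 peaked late in the night, whereas Lpl peaked at CT4.04. Of 34 genes of amino acid catabolism and the urea cycle, the list of Amdhd1, 9 were called and 3 of them peaked in the window. Hal, the first enzyme of the histidine pathway in which Amdhd1 also acts, peaked at CT2.45 with 287 to 738 CPM and edgeR adjusted p 0.00331. Agxt peaked at CT5.96, Tdo2 at CT11.1 and Asl at CT19.1. The 2 to 4 genes of each of these lists in the window were read against the 21.4% of all called genes that peaked there, and are too few to set a list apart. The other 14 pathway lists held none of the 55 genes, but the lists do not hold every gene of a pathway, and Crot and Rcl1 are on none of them although lists of fatty acid oxidation and ribosome biogenesis were among those used. The lists were drawn up with earlier results of these data known, and the counts carry no test of their own.

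Reads in the 5′UTR were frequent in several of the genes, and short upstream open reading frames (uORFs) stood in many of them. The 5′UTR of 42 genes had nearly the same length in RefSeq and in the files, with a difference no larger than the number of exons up to the start codon. Of these, 22 (52.4%) held at least 1 ATG followed by a stop codon in frame within the 5′UTR, against 36.9% of 6493 genes taken in the same way. The 5′UTRs were also longer, with a median of 213.5 bases against 150. Prkd3 had the most uORFs, 13, followed by Arsg with 12, Tmco4 with 9 and Inca1 with 7. As examples, picked by hand, the first frame of at most 30 bases is shown for 5 genes described above, with start and stop codon in capitals.
Arrdc3: ATGaactatttgTAG
Hsd3b7: ATGtacatcTAG
Arsg: ATGaggcagttgaacatcTGA
Usp18: ATGctgctcggtcttcgctctttggctTGA
St6gal1: ATGaactggccccctTGA
The share of a gene's reads that fell in its 5′UTR was highest in Arsg (38.0%), Gabarapl1 (37.5%) and Inca1 (37.4%), followed by Tmco4 (26.4%), St6gal1 (23.8%), Dyrk1b (23.0%) and Bbc3 (22.8%). The median was 6.02% over the 55 genes and 3.42% over all 8216. It was 0% in Fbxo21 and 2.42% in Hsd3b7, so a high share was no common feature of the group.

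Whether ribosomes shifted between the 5′UTR and the CDS over the day was examined in the ratio of both counts. The same counts, summed, chose the genes, so the ratios of the 55 are given as a description. With limma, 0 of 5139 genes had a 24-h rhythm in the ratio at an adjusted p under 0.05 (0%), and 246 (4.79%) had an unadjusted p under 0.05. Of the 55 genes, 36 had at least 10 reads on average in both regions. As examples, the 3 genes with the lowest unadjusted p are given, chosen after their values were seen (adjusted p = 0.807 by limma). In Arrdc3 the log2 ratio had a fitted peak at CT7.59 and a peak-to-trough difference of 1.47, in Inca1 at CT9.00 with 1.56 and in Dyrk1b at CT7.97 with 1.27. Over the 36 genes the peaks of the ratio ran from CT1.72 in Hsd3b7 to CT23.4 in Pdgfrb. The largest difference was 3.15, in Map3k20. The median fitted difference of the ratio was 0.97 log2 units in the 36 genes and 0.85 in all tested. The median log2 ratio itself was -3.70 against -3.50. With CDS reads alone, the fitted peak of Inca1 moved from CT6.11 to CT5.13 and its difference from 1.60 to 1.30 log2 units.

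The rhythm was also set against a full cycle, since CT0 and CT24 are the same hour on successive days and the cosine gives them one value. The limit on R2 works against genes with a large gap between them, so a small gap was partly fixed by the choice. By edgeR, 0 of 11736 genes (0%) differed at an adjusted p under 0.05, and 577 (4.92%) had an unadjusted p under 0.05, while DESeq2 called 4 genes, none of them among the 55. Of the 55 genes, 19 (34.5%) were higher at CT24 and 36 lower, against 41.2% higher among all genes, with a median difference of -0.15 log2 units against -0.07. The differences ran from -0.87 to 0.91, and their median size was 0.23, as it was over all genes.

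Among the 55, 3 genes had an unadjusted p under 0.05 between these days, and the lowest adjusted p was 0.952. Arrdc3 had 12.3 ± 1.83 CPM (SD, n = 2) at CT0 and 23.2 ± 5.12 at CT24, a difference of 0.91 log2 units (unadjusted p = 0.00594 by edgeR), and did not pass the adjustment. Ubxn1 had 82.7 ± 13.9 CPM at CT0 and 54.7 ± 0.832 at CT24, a difference of -0.60 (unadjusted p = 0.0185 by edgeR). Pxdn differed by -0.46 (unadjusted p = 0.0372 by edgeR), from 31.7 and 33.7 CPM at CT0 to 26.8 and 20.9 at CT24. No difference between the days was thus detected for any of the genes after adjustment.

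The peak time of the group depended on whether Mup reads were counted in the library total. With them, the median gene of all 8216 had a fitted difference of 0.42 log2 units with a peak at CT22.4, against 0.07 without them, 0.01 with edgeR's TMM scaling and 0.02 with DESeq2 size factors. Relative to the median gene, where a library scale cancels apart from the pseudocount, the 55 genes had a difference of 1.09 log2 units with a peak at CT6.42 on the total without Mup. The fitted peak stayed from CT3 to before CT9 for 53 of the genes with TMM, for 52 with DESeq2 size factors and for 42 with Mup in the total. The rule itself kept 37, 36 and 11 of the 55 on these scales.

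**Figure D5:**
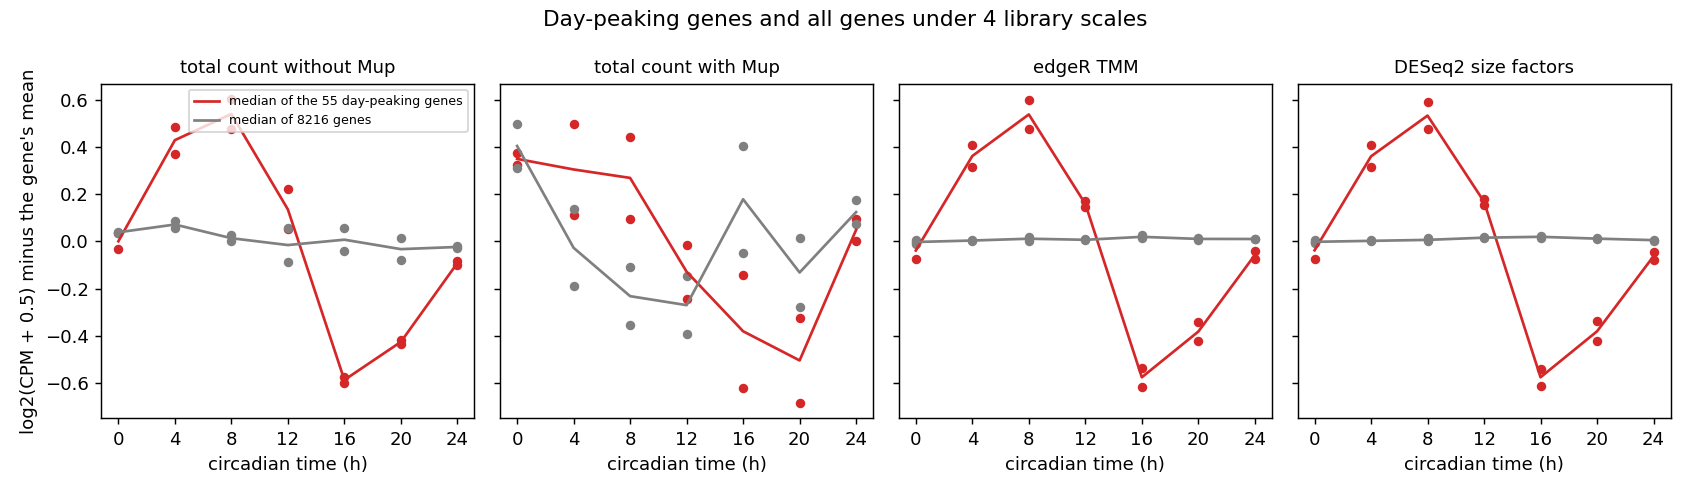
Median of log2(CPM + 0.5) minus each gene's mean in every library (points, with a line through the time means) against circadian time in hours, for the 55 genes and for all 8216 genes, under 4 library scales. The median of all genes is flat on the total without Mup, with TMM and with DESeq2 size factors and swings by 0.42 with Mup in the total. The median of the 55 genes peaks at CT4.88 with Mup in the total and at CT6.35 without.

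In length and level the 55 genes lay near the middle of all genes. Their mean level had a median of 16.6 CPM, from 3.96 in Limd2 to 597 in Crot, against 17.2 over all 8216 genes. The CDS had a median length of 1572 bases against 1374.5, and the median density over the CDS was 9.30 RPKM against 11.7. The 2 mice of a time differed by a median of 0.26 log2 units in these genes and 0.23 in all genes. No other gene had counts identical to those of a member, but 8 members overlap another coding gene, which besides those named above are Slc15a3 (Tmem132a), Limd2 (Map3k3 and Gm10840), Adck5 (Cpsf1), Wdr6 (Dalrd3) and Zfp526 (Dedd2).

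Some members were held more firmly than others. Crot, Lpl, Fbxo21, Arrdc3, Ppm1k, St6gal1 and Itga8 met the rule in all 23 settings tried, and 28 of the 55 met it with each library left out in turn. Limd2 failed it in 15 of the 23 settings, and Bbc3, Rcl1, Dyrk1b and Tmco4 in 13 each. Hsd3b7, Gabarapl1, Casp6, Tymp and Abcg8 failed in 1 setting, the total with Mup.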

How the data were processed

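Ribosome-protected fragments of 14 mouse livers were measured, grouped by the circadian time in the sample titles. The authors deposited raw read counts, without normalization, for the CDS and each UTR of 28167 RefSeq transcripts. Per the labels' processing notes and the study's methods, reads were checked with FastQC, clipped, cleared of rRNA with Bowtie2 2.1.0.0 and aligned to mm10, and exact matches were kept with SAMtools 0.1.19.0. The methods state that density profiles rest on uniquely aligned reads, each placed at 1 nucleotide. In the deposited counts, however, 952 of 2107 genes with several measured transcripts had transcripts of identical CDS counts in every library, as did 4 sets of gene copies on different chromosomes, so a read on shared sequence may count more than once. A second sequencing run of CT16 replicate 2 has no separate file here. PCR duplicates carry no molecular identifiers. Depth was 40593197 to 90458783 counts per library.

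Symbols came from RefSeq tables for 27840 transcripts and from a gene name table for 116, and 211 had none. CPM, the cosine fit and its standard errors were computed with numpy 2.4.6 and scipy 1.17.1. The 24-h cosine was tested across 11736 genes with a mean of at least 10 counts by edgeR 4.0.16 (quasi-likelihood, no covariate), as was CT24 against CT0, in a fit of all 7 times. The 5′UTR to CDS ratio, log2 with 0.5 reads added, was tested with limma 3.58.1. All p-values were adjusted by Benjamini-Hochberg over all genes tested. They measure the spread between mice. The scripts were tested on simulated data, where edgeR called 17 of 100 genes with a 1.5-fold rhythm and 97 of 100 with a 3-fold rhythm. It called 90 of 200 genes with a 2-fold difference between CT0 and CT24, and limma called 130 of 200 ratios with a 2-fold rhythm. In the simulated ratios the 5′UTR and CDS of a gene varied together between libraries, so only counting noise moved the ratio. The rate for ratios may therefore be higher than in the real data. Alternatives were other library scales (Mup included, TMM, DESeq2 1.42.0 size factors), CDS reads only, other pseudocounts and count minimums, halved counts of CT16 replicate 2, DESeq2, JTK_CYCLE, the study's algorithm, run here on 1 transcript per gene, a replicate block and each library left out.

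The genes, roles, gene lists and cell type markers were chosen with earlier results of these data known. The genes named in full are the 16 with the largest difference, the 8 with the highest mean CPM, the 6 with the highest R2 and those in a pathway or marker list, 21 in all, and of each pathway list that holds one, up to 4 other genes with the lowest adjusted p. The remaining members were described by role after their values were seen. A few genes that these rules name are not reported here. Marker lists whose sums are not described above, of lymphocytes (53.2 to 138 CPM), erythroid cells (138 to 302) and small intestine (37.0 to 225), and those of cholangiocytes (27.3 to 70.4) and neutrophils (0.319 to 3.44), were computed in the same way. Sequences are from RefSeq on GRCm38.p6.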

Additional observations from a re-analysis of the deposited data

How the results depend on the processing

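With Mup reads in the library total, the rule found 12 genes instead of 55, and the median peak of the 55 was 4.77 h after CT0 instead of 6.44 h. With DESeq2 size factors it found 36 genes and with TMM 37, all among the 55, at median peaks of CT6.58 and CT6.56 for the 55. Leaving out each library gave 46 to 76 genes, of which 40 to 52 were among the 55, and a median peak of CT6.20 to CT6.70. CDS reads alone gave 49 genes, pseudocounts of 0.1 and 1 CPM gave 61 and 42, and minimum means of 50 and 200 counts gave 64 and 37. JTK_CYCLE, with P adjusted over its lags, called 2085 rhythmic genes (52 of the 55) against 1185 by edgeR. With a Benjamini-Hochberg adjustment, an alternative added after seeing the data, it called 411 (31 of the 55), and the DESeq2 likelihood ratio test called 1691. Leaving out a library gave 889 to 1306 rhythmic genes by edgeR, 49 to 55 of them among the 55. The count of genes that differed between CT24 and CT0 was 0 by edgeR, 4 by DESeq2, 1 with a minimum mean of 1 count or of 100 counts, and 0 to 2 with a library left out, 2 of them without CT0 replicate 1. No member was among them. No ratio of 5′UTR to CDS was called under any alternative. With the replicate number as a block, the rule found 57 genes, all 55 among them, the median peak was CT6.44 (added after seeing the data), edgeR called 1202 rhythmic genes and 5 between CT24 and CT0, and 0 ratios. Of 21 correlations between the deviations of same-numbered libraries, 9 were over 0.1 (-0.126 to 0.408, median 0.0847). Some same-numbered libraries thus deviated alike, and whether they shared a batch was not tested. Of the peak times and sizes of the 21 genes named in full, 715 alternative values moved by less than their standard error and 41 by more. The causes of these changes were not tested. Genes near 100 counts have few reads in each library, and 2 mice per time leave small rhythms undetected.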
